A study of Mus musculus with 6 samples.

Results

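The genes described here make the machinery that copies DNA in S phase. They are 34 genes chosen by name for their known roles, from the loading of the replicative helicase to the supply of deoxynucleotides, and each was found on the array by the gene symbol of the platform annotation. All 34 of 34 were measured, among 17097 named genes in all, and where a gene had several probe sets the brightest on average stood for it. RNA came from CD11c+ dendritic cells, which present antigen to T cells, purified from the spleen by flow cytometry, in C57Bl/6 mice, and was hybridised to Affymetrix 3' expression arrays. The 3 samples of the control group came from wild-type mice and the 3 of the other group from mice with the genotype Map3k7CreER, in which Map3k7, the gene of the kinase TAK1, is deleted on tamoxifen. Both groups received tamoxifen for 3 days, so the drug is shared while Cre is not, and deletion and the Cre transgene cannot be told apart. The labels used here name neither the promoter of the CreER transgene, nor the age of the mice, nor whether animals were pooled, nor whether replicates are different mice. The p-values therefore measure only the spread between these samples.

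Before S phase, the origin recognition complex with Cdc6 and Cdt1 loads the MCM2-7 ring onto DNA, and Cdc45, the GINS complex and Mcm10 turn it into a moving helicase. Polymerases, the sliding clamp PCNA and its loader then copy the strands, while ribonucleotide reductase and thymidylate synthase supply building blocks. Most of these genes are transcribed in late G1 and S phase under E2F factors, which pocket proteins of the retinoblastoma family hold in check. Most mature splenic dendritic cells do not divide, and a minority of them and their precursors do. In RNA from bulk cells, fewer cells in S phase and less of the mRNA per cell cannot be told apart.

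The promoters of 5 of these genes are shown because E2F control is what the group is best known for. RefSeq promoter windows (GRCm38.p6), each running from 250 bases before to 50 bases after a gene start, were found for 30 of the 34 genes. Mcm4, Gins1, Gins2 and Pole had no entry. The lines give the 250 bases before the start, 5′ to 3′ on the strand of the gene. Capitals mark the E2F words TTTCCCGC, TTTCGCGC, TTTGCCGC and TTTGGCGC, read on both strands, so that a word on the opposite strand appears as its reverse complement.
Mcm5, chr8:75109259-75109508, plus strand: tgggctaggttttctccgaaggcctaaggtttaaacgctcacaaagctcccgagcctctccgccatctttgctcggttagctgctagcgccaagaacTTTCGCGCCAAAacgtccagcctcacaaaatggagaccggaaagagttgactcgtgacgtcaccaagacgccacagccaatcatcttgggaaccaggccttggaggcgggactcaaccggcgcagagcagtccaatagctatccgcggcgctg
Mcm6, chr1:128359706-128359955, minus strand: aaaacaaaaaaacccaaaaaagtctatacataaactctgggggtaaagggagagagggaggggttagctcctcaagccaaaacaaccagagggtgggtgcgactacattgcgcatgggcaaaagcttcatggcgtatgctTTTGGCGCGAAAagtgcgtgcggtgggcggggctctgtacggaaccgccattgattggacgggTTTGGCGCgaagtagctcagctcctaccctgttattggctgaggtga
Cdc6, chr11:98907901-98908150, plus strand: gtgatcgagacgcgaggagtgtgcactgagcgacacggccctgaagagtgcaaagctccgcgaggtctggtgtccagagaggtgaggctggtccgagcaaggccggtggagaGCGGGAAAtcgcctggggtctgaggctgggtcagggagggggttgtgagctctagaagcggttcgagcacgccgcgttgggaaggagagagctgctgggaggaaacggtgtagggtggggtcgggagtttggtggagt
Uhrf1, chr17:56304063-56304312, plus strand: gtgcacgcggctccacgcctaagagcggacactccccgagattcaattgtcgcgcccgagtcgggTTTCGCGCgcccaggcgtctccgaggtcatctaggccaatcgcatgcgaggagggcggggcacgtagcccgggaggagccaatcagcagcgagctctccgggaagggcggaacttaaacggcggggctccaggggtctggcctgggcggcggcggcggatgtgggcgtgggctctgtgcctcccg
Mcm2, chr6:88898781-88899030, minus strand: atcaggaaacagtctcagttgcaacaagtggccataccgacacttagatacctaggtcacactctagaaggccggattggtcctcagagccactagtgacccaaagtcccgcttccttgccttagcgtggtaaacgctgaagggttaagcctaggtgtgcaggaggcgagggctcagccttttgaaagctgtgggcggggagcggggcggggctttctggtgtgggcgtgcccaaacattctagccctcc
Mcm5 and Mcm6 each hold an overlapping pair of words on opposite strands, at -153 to -142 and at -110 to -99, and Mcm6 has another at -47 to -40. Cdc6 has 1 word on the opposite strand, at -138 to -131, and the second Uhrf1 start has 1 at -185 to -178. Mcm2 is shown as the gene that passed the adjusted threshold on its brightest probe set, and none of these 4 words stands in its window. That says only that these letters are not there.

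An E2F word stood in the window of 13 of the 30 genes, or 43.3%, against 2.6% of all 27025 genes in the promoter table. Counted by window the shares were 35.1% of 37 and 2.26% of 32851. Of the 13001 windows with a GC content in the middle range of these genes (51.3 to 65.7%), 3.15% held a word. The 37 windows were not themselves limited to that range. Nor does the range match CpG content, which each E2F word contains. The median count of CpG was 21 in the 37 windows, 13 in the 13001 and 7 over all windows. The hexamer TTTGAA, the core of the CHR element through which many mitotic genes are regulated, was also read on both strands. It stood in the windows of 4 of the 30 replication genes (13.3%), of 15 of 21 mitosis genes (71.4%), of 20.2% of all genes and of 12.8% of the genes with a window in the same GC range. CCAAT, the word bound by NF-Y, was in 63.3% of the replication genes and 41.1% of all genes. Some E2F words share bases with each other, but none of these counts says that a factor binds. Genes with an E2F word had a median log2 difference of -1.04 between knockout and wild-type cells (13 genes, -1.61 to -0.04). Those without one had a median of -1.07 (17 genes, -1.51 to -0.33). These groups were not tested against each other, and Orc1, too dim to read, is among the genes with a word.

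**Figure D1:**
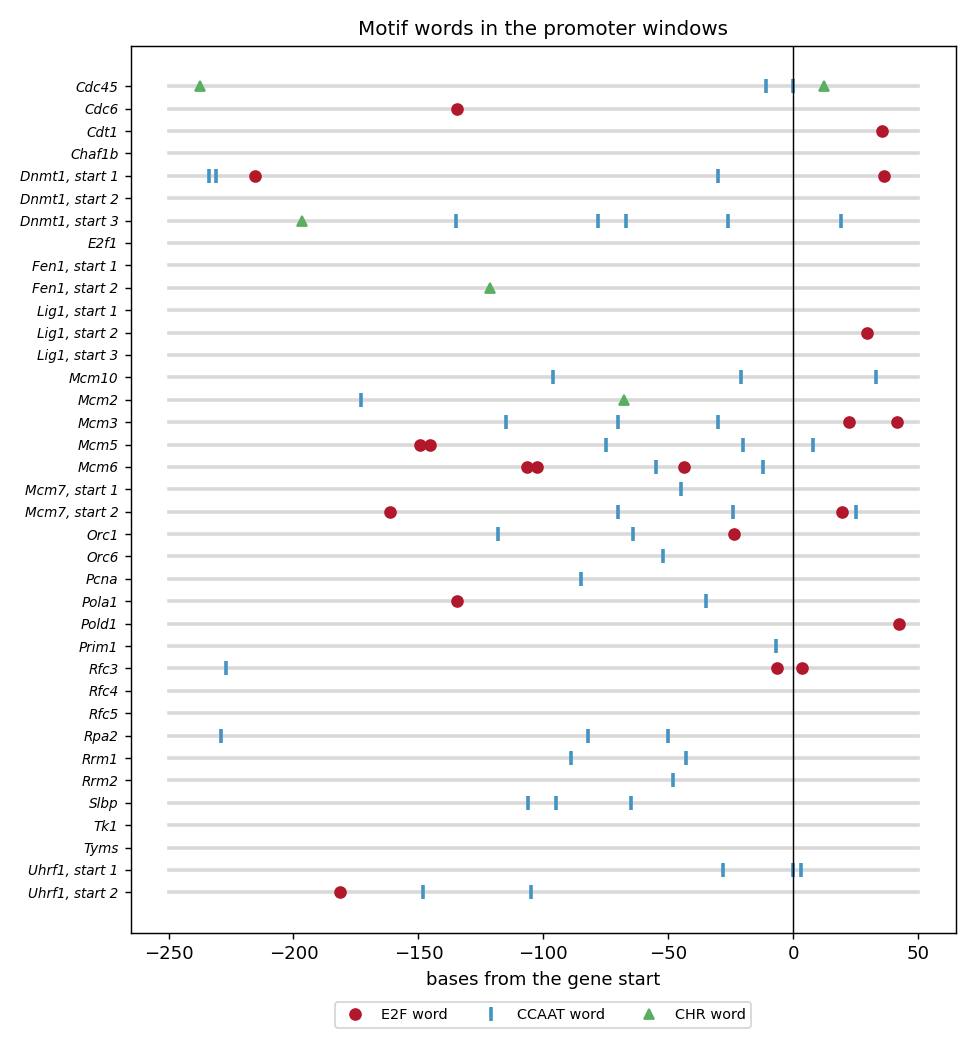
Positions of E2F words (TTTCCCGC, TTTCGCGC, TTTGCCGC, TTTGGCGC), CCAAT and the CHR hexamer TTTGAA, on either strand, in the 37 RefSeq promoter windows of 30 replication and S-phase genes. The x axis is the distance in bases from the gene start, and each grey line is 1 window; E2F words appear in 13 windows and CHR hexamers in 4.

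The arrays can be described briefly. Map3k7 fell in the knockout samples on its brightest probe set, from 6.68, 6.69 and 6.57 to 4.04, 4.46 and 3.64 (all array values are log2 RMA signals), a difference of -2.60 (SE 0.19, limma adjusted p = 0.00128). Where its probes lie relative to the deleted part was not analysed here. Array medians were 3.77 to 3.81, so a level near 4 is that of a typical dim probe set. The 3' minus 5' signal of the Actb control probe sets, a sign of RNA integrity, was 0.22 to 0.35 in wild-type and 0.31 to 0.35 in knockout arrays. That of Gapdh was -0.26 to 0.15 and -0.16 to -0.14. Wild-type replicate 3 was the highest array for both, and in Gapdh it stood apart at 0.15. Itgax, which encodes the sorting marker CD11c, was bright, at 10.99 to 11.31 in wild-type and 10.82 to 11.01 in knockout arrays. In the comparison of all 17097 genes 101 (0.591%) were lower and 184 (1.08%) higher in knockout cells at a limma adjusted p under 0.05.

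The signals of the replication genes read lower in Map3k7-knockout dendritic cells, though 1 gene alone passed the adjusted threshold. All 34 had a negative log2 difference, where 53.9% of all genes did, and their median difference was -1.06, a 2.08-fold lower signal, against -0.02 for all genes. At least 2-fold lower were 19 of the 34, against 0.778% of all genes. For 24 of the 34 the groups were apart, with the highest knockout value under the lowest wild-type value (10.6% of all genes). On these brightest probe sets only Mcm2, a subunit of the helicase ring, passed it. By limma without adjustment, p was under 0.05 for 32 of 34 as lower and 0 as higher, against 8% of all genes as lower, the exceptions being Orc1 and Pola1. Because the genes were chosen with earlier results of these data known, these counts describe the group and carry no test of it.

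**Figure D2:**
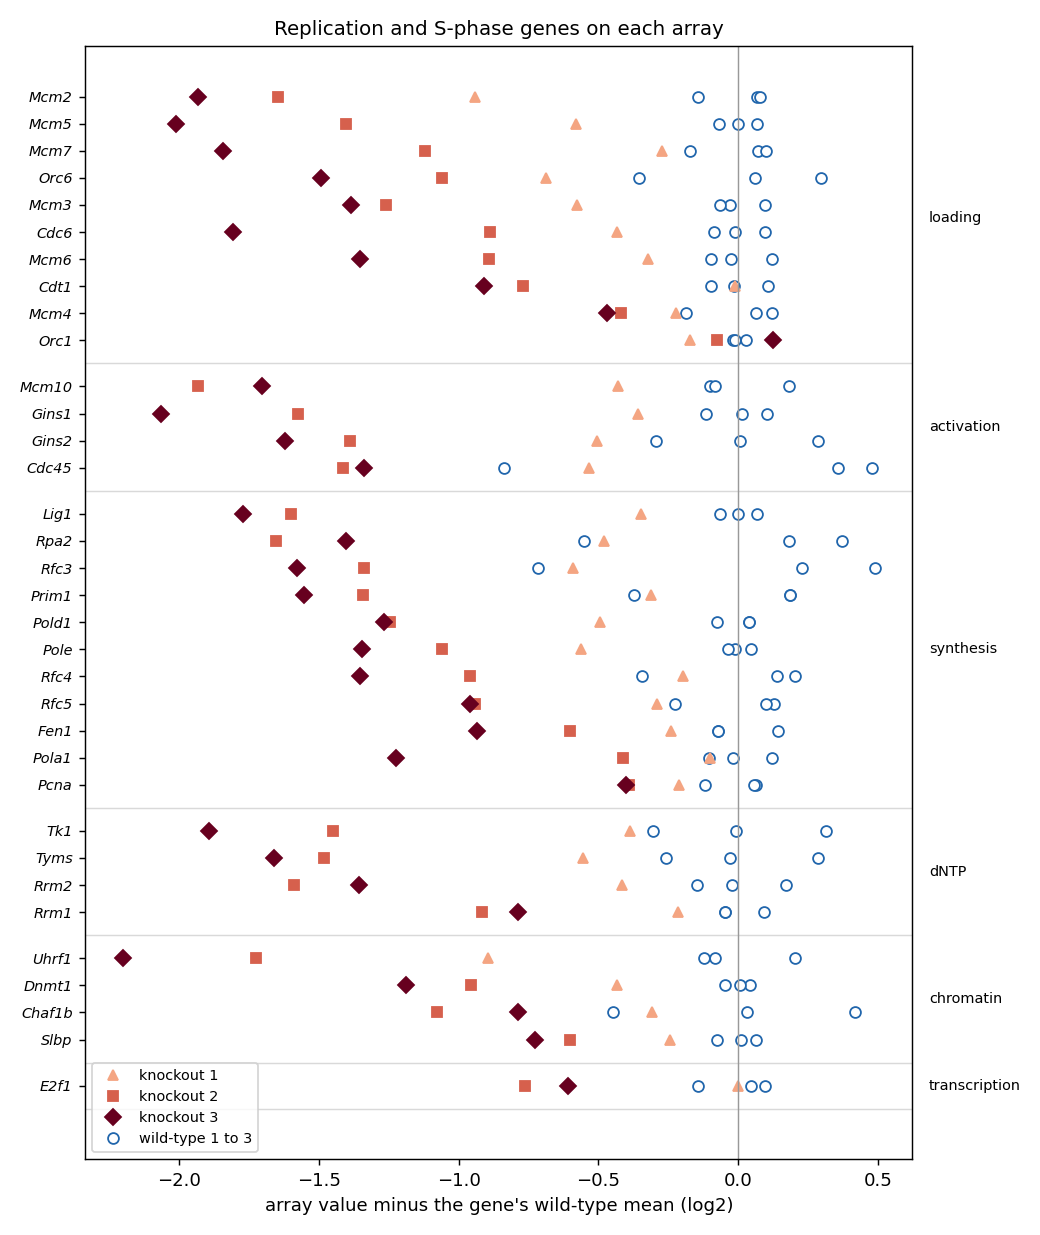
Each row is 1 of the 34 genes, grouped by role, and each symbol 1 array, as its log2 value minus the mean of the 3 wild-type arrays. Knockout replicate 1 (light triangles) lies below the wild-type arrays (open circles) and above knockout replicates 2 and 3 (squares and diamonds) for 24 of 34 genes; for 9 it lies above the lowest wild-type array, and in Orc1 it is the lowest of all.

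The knockout samples were not alike. The median of the 34 genes, each set against its wild-type mean, was 0.06, 0.05 and -0.08 on the wild-type arrays and -0.37, -1.10 and -1.35 on knockout replicates 1, 2 and 3. Replicate 1 was the highest of the knockout arrays for 33 of 34 genes (38.5% of all genes, and 66 of the 101 genes called lower), and replicate 3 was the lowest of all 6 arrays for 26 (24.7% of all genes). Of the knockout arrays, replicate 1 stood above the lowest wild-type array for 9 genes, while replicate 2 did so for 0 and replicate 3 for 1. For Cdc45, Rfc3, Rfc4, Prim1, Rpa2 and Chaf1b that overlap was with wild-type replicate 3 alone, since wild-type replicates 1 and 2 lay above knockout replicate 1. Without knockout replicate 1, 25 of the 34 genes passed a limma adjusted p under 0.05 as lower, where 1.33% of all genes did. Orc1 alone turned positive there, at 0.02. Leaving out any of the other 5 arrays left 0 that passed, Mcm2 included, though 26 to 31 still had an unadjusted p under 0.05. The median difference stayed between -1.30 and -0.82 in these 6 fits. On the 3 brightest probe sets of Map3k7, replicate 1 read 4.04, 3.87 and 3.18, replicate 2 read 4.46, 3.72 and 3.46, and replicate 3 read 3.64, 3.90 and 3.17. Whether the extent of deletion goes with the order of the knockout arrays was not tested.

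**Figure D3:**
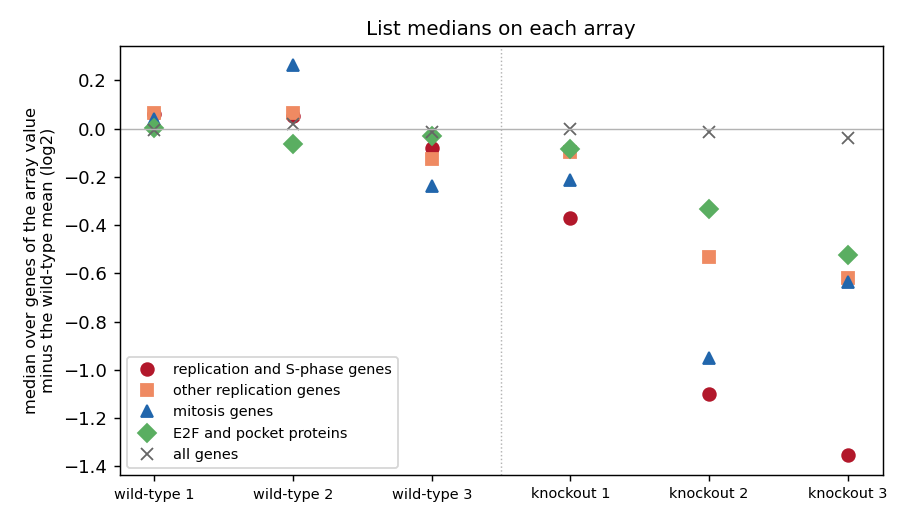
For each array, the median over a gene list of the log2 array value minus the gene's wild-type mean. The 34 replication and S-phase genes step down from -0.37 to -1.35 over the knockout arrays while all genes stay within 0.04 of 0.

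Helicase loading was led by the MCM ring. Mcm2 read 8.63, 8.42 and 8.64 in wild-type and 7.62, 6.91 and 6.63 in knockout arrays, and it fell by 1.51 (SE 0.23, limma adjusted p = 0.029), to a 2.84-fold lower signal. The groups did not overlap, and the other Mcm2 probe set differed by -1.51 as well (limma adjusted p = 0.0619). Mcm5, also of the ring, read 8.40, 8.27 and 8.33 against 7.75, 6.93 and 6.32, a difference of -1.33 (SE 0.31, adjusted p = 0.102). Its wild-type arrays lay close together, and the spread was on the knockout side. Mcm3, another ring subunit, read 7.83, 7.79 and 7.96 against 7.28, 6.60 and 6.47, a difference of -1.07 (SE 0.20, adjusted p = 0.0554). Orc6, the smallest subunit of the origin recognition complex, read 7.53, 7.77 and 7.12 against 6.79, 6.42 and 5.98, a difference of -1.08 (SE 0.23, adjusted p = 0.0794). Neither gene overlapped between groups. Orc1, the origin recognition subunit with the ATPase site, read 3.68, 3.69 and 3.73 against 3.53, 3.63 and 3.82, a difference of -0.04 (SE 0.10, adjusted p = 0.931). Both of its probe sets were near the array median in every sample, so its level was not readable here.

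The remaining loading factors differed by -1.08 for Mcm7, -0.86 for Mcm6 and -0.37 for Mcm4, the other ring subunits, and by -1.04 for Cdc6 and -0.56 for Cdt1, which bring the ring to the origin (limma adjusted p 0.159 to 0.343 for these 5). Cdt1 overlapped between groups, because knockout replicate 1 read 9.46 where wild-type arrays read 9.37 to 9.58. Members of 1 ring thus had unequal differences, from -1.51 for Mcm2 to -0.37 for Mcm4, but the differences between them were not tested.

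Helicase activation factors had the lowest median of the roles with 4 or more genes, -1.25. In limma 4 of 4 had an unadjusted p under 0.05 (8% of all genes as lower), while 0 passed after adjustment. Mcm10, which helps the loaded ring begin to unwind, read 6.41, 6.69 and 6.43 in wild-type and 6.08, 4.58 and 4.81 in knockout arrays, a difference of -1.35 (SE 0.35, adjusted p = 0.138). Gins1, a GINS subunit, read 7.70, 7.79 and 7.57 against 7.32, 6.11 and 5.62, a difference of -1.33 (SE 0.37, adjusted p = 0.171). For both genes knockout replicate 1 stood much nearer to the wild-type arrays than to the other knockout arrays. Gins2, its partner subunit, read 7.40, 7.68 and 7.10 against 6.89, 6.0 and 5.77, a difference of -1.17 (SE 0.28, adjusted p = 0.115). Cdc45, which binds GINS and the ring, read 6.31, 6.19 and 4.99 against 5.30, 4.42 and 4.49, a difference of -1.10 (SE 0.37, adjusted p = 0.261). Here wild-type replicate 3 lay below knockout replicate 1.

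Genes of strand synthesis, 11 in all, had a median difference of -0.99. In limma 0 were past the adjusted threshold and 10 had an unadjusted p under 0.05 (8% of all genes as lower). Pole, the catalytic subunit of the leading-strand polymerase, read 6.04, 6.10 and 6.02 in wild-type and 5.49, 4.99 and 4.70 in knockout arrays, a difference of -0.99 (SE 0.18, adjusted p = 0.0547). Pold1, its counterpart on the lagging strand, read 7.09, 6.97 and 7.09 against 6.56, 5.80 and 5.78, a difference of -1.0 (SE 0.20, adjusted p = 0.0682). Both polymerases had tight wild-type arrays and no overlap. Rfc5, a clamp loader subunit, read 8.35, 8.31 and 7.99 against 7.93, 7.28 and 7.26, a difference of -0.73 (SE 0.20, adjusted p = 0.151). Lig1, the ligase that seals Okazaki fragments, read 8.10, 8.17 and 8.04 against 7.76, 6.50 and 6.33, a difference of -1.24 (SE 0.33, adjusted p = 0.153). Pola1, the polymerase that extends RNA primers, read 8.21, 7.98 and 8.07 against 7.99, 7.68 and 6.86, a difference of -0.58 (SE 0.26, adjusted p = 0.422). Its knockout replicate 1 lay among the wild-type arrays, and knockout replicate 3 alone was far below them.

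Of the other 6 synthesis genes, Rpa2, a subunit of the single-strand binding protein, differed by -1.18, the clamp loader subunits Rfc3 and Rfc4 by -1.17 and -0.84, the primase subunit Prim1 by -1.07 and the flap nuclease Fen1 by -0.59 (adjusted p 0.176 to 0.262 in limma). The sliding clamp Pcna, which also serves DNA repair, had the smallest difference of the 11, -0.33 (SE 0.10, adjusted p = 0.212), yet its arrays did not overlap, at 12.08 to 12.26 in wild-type and 11.80 to 11.98 in knockout cells. Rpa2, Rfc3, Rfc4 and Prim1 overlapped, each because wild-type replicate 3 was below knockout replicate 1. Wild-type replicate 3 was the lowest wild-type array for 9 of the 11 synthesis genes and for 21 of all 34, where 39.4% of all genes had that order, but for 3 of the 10 loading genes.

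Deoxynucleotide supply was lower without overlap in 4 of 4 genes, and 0 passed after adjustment while 4 had an unadjusted p under 0.05 (limma). Over all genes 10.6% were lower without overlap and 8% were lower at that unadjusted p. Tyms, thymidylate synthase, read 8.53, 8.85 and 8.30 in wild-type and 8.01, 7.08 and 6.90 in knockout arrays, a difference of -1.23 (SE 0.28, adjusted p = 0.0982). This rests on 1 probe set that can match several transcripts, and the other 4 Tyms probe sets were dim, with differences of -0.16 to -0.02. Tk1, the S-phase thymidine kinase, read 8.35, 8.67 and 8.05 against 7.97, 6.91 and 6.46, a difference of -1.24 (SE 0.35, adjusted p = 0.177). Rrm2, the small and cell-cycle-regulated subunit of ribonucleotide reductase, read 8.92, 8.72 and 8.60 against 8.33, 7.16 and 7.39, a difference of -1.12 (SE 0.28, adjusted p = 0.124). In both genes knockout replicates 2 and 3 stood well below replicate 1. Rrm1, the large subunit of the same enzyme, read 8.52, 8.39 and 8.39 against 8.22, 7.52 and 7.64, a difference of -0.64 (SE 0.18, adjusted p = 0.165).

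Among the genes that restore chromatin behind the fork, Uhrf1 had the largest difference of all 34. Uhrf1, which recognises hemimethylated DNA and recruits Dnmt1, read 8.27, 8.22 and 8.55 in wild-type and 7.45, 6.62 and 6.14 in knockout arrays, a difference of -1.61 (SE 0.29, limma adjusted p = 0.0522), or a 3.05-fold lower signal. Its dimmer probe set, at 5.74, 5.51 and 5.27 against 4.47, 4.33 and 4.06, passed the threshold with a fall of 1.22 (SE 0.15, limma adjusted p = 0.0126). Both probe sets were apart between the groups. Dnmt1, the maintenance DNA methyltransferase, read 8.45, 8.54 and 8.50 against 8.06, 7.54 and 7.31, a difference of -0.86 (SE 0.18, adjusted p = 0.0762). Slbp, which binds the stem-loop of histone mRNAs, read 10.11, 10.06 and 9.97 against 9.80, 9.44 and 9.32, a difference of -0.52 (SE 0.14, adjusted p = 0.139). Neither overlapped between groups. Chaf1b, a subunit of the histone chaperone CAF-1, read 5.08, 5.47 and 4.60 against 4.74, 3.97 and 4.26, a difference of -0.73 (SE 0.25, adjusted p = 0.281), and wild-type replicate 3 lay below knockout replicate 1.

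E2f1, the activating E2F factor among the 34, read 6.08, 5.85 and 6.04 in wild-type and 5.99, 5.23 and 5.38 in knockout arrays on its brightest probe set, a difference of -0.46 (SE 0.19, limma adjusted p = 0.39). Knockout replicate 1 lay among the wild-type arrays there. The other E2f1 probe set read 5.52, 5.50 and 5.41 against 5.02, 4.38 and 4.15, without overlap, a difference of -0.96 (SE 0.21, limma adjusted p = 0.0803). The choice of probe set therefore changed the size of the E2f1 difference by more than its standard error.

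Probe sets that were not used to represent a gene gave a check. Beyond the 34 there were 25 probe sets for 19 of the genes. The 13 with a mean above 4.5, a limit set after seeing the data, were all lower in knockout cells, by a median of -0.99, and 7 of them did not overlap. The 12 at or below 4.5 had a median of -0.08, and 9 were negative. Transcripts near the array median gave little difference in either direction, so the averages over all probe sets of a gene are pulled toward 0 by dim ones.

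**Figure D4:**
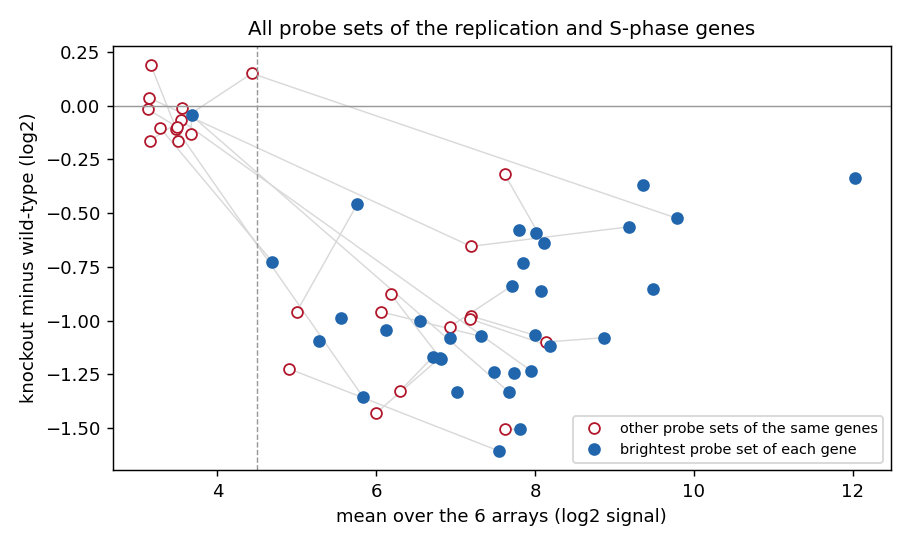
Every probe set of the 34 genes, with the mean log2 signal over the 6 arrays on the x axis and the knockout minus wild-type log2 difference on the y axis; grey lines join probe sets of 1 gene. Left of the dashed line at 4.5 the differences lie close to 0, and right of it all are negative.

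The rest of the replication pathway was less uniform. Of 46 further replication genes 39 were measured, and 0 passed the adjusted threshold in limma, with 20 lower and 1 higher at an unadjusted p under 0.05. Their median difference was -0.50, 30 were negative and 13 lay below all wild-type arrays without overlap. Over all genes 8% were lower at that unadjusted p, 53.9% were negative and 10.6% lay below without overlap. Shmt1, a folate enzyme that feeds thymidylate synthesis, read 5.72, 5.86 and 5.80 in wild-type and 5.23, 5.35 and 5.29 in knockout arrays, a difference of -0.50 (SE 0.09, adjusted p = 0.0507). In this gene the 3 knockout arrays were level, and replicate 1 was the lowest of them. Atad2, a chromatin ATPase of S phase, differed by -0.90 (SE 0.21, adjusted p = 0.101). Rnaseh2b, a subunit of the enzyme that removes ribonucleotides from DNA, differed by -0.62 (SE 0.14, adjusted p = 0.102). Over 9 alternative fits of all 6 arrays, Shmt1 ranged from -0.94 to -0.48, Atad2 from -0.93 to -0.24 and Rnaseh2b from -0.63 to -0.59. Shmt1 passed the adjusted threshold in 4 of the 9, Atad2 and Rnaseh2b in 0. The 1 gene on the higher side, named here after its value was seen, was the GINS subunit Gins3, at 5.36, 5.58 and 5.66 against 6.18, 5.76 and 6.04, a difference of 0.46 (SE 0.14, adjusted p = 0.198). The other GINS subunits stood at -1.33 (Gins1), -1.17 (Gins2) and -0.27 (Gins4, adjusted p = 0.631).

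Among 14 E2F and pocket protein family genes and their cyclin E partners, 2 were lower and 0 higher at a limma adjusted p under 0.05. Over all genes these shares were 0.591% and 1.08%. Of the 14 differences 9 were negative and 5 positive. The pocket protein Rbl2, named here after its value was seen, was higher without overlap, by 0.43 (SE 0.11, limma adjusted p = 0.146). Ccne2, a cyclin E that drives entry into S phase, read 4.32, 4.30 and 4.57 in wild-type and 3.51, 3.47 and 3.53 in knockout arrays, a fall of 0.89 (SE 0.10, limma adjusted p = 0.0106). E2f2, an activating E2F, read 6.67, 6.60 and 6.74 against 6.16, 6.13 and 6.15, a fall of 0.53 (SE 0.09, limma adjusted p = 0.0376). The 3 knockout arrays of E2f2 were level. Those of Ccne2 lay under the array medians, where neither their order nor the full size of the fall can be read, and without knockout replicate 2 its limma adjusted p was 0.0733, while it passed in the 5 other fits with 1 array left out. E2f2 passed in 0 of those 6 fits (limma adjusted p 0.069 to 0.164). E2f8, a repressing E2F that is itself an S-phase gene, read 7.90, 8.03 and 7.84 against 7.44, 6.55 and 6.40, a difference of -1.13 (SE 0.25, adjusted p = 0.0894), with the stepped order.

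Mitosis genes were set beside these as the other programme of dividing cells. Of 25 listed 24 were measured, and 24 were negative (53.9% of all genes) with a median of -0.58. In limma 0 passed the adjusted threshold, while 16 had an unadjusted p under 0.05 as lower (8% of all genes). Plk1, a mitotic kinase, read 5.58, 5.51 and 5.46 in wild-type and 5.13, 4.87 and 4.80 in knockout arrays, a difference of -0.59 (SE 0.11, adjusted p = 0.06). Ncapg, a condensin subunit, differed by -0.78 (SE 0.18, adjusted p = 0.0955) and Ttk, a spindle checkpoint kinase, by -0.59 (SE 0.15, adjusted p = 0.136). The order of the knockout arrays differed from that of the replication genes. For mitosis genes replicate 2 was the lowest of all 6 arrays in 21 of 24 and replicate 3 in 3, and the list medians on the knockout arrays were -0.21, -0.95 and -0.63. For the 34 replication and S-phase genes replicate 2 was the lowest in 7 and replicate 3 in 26. These orders are a description of 3 samples and were not tested.

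**Figure D5:**
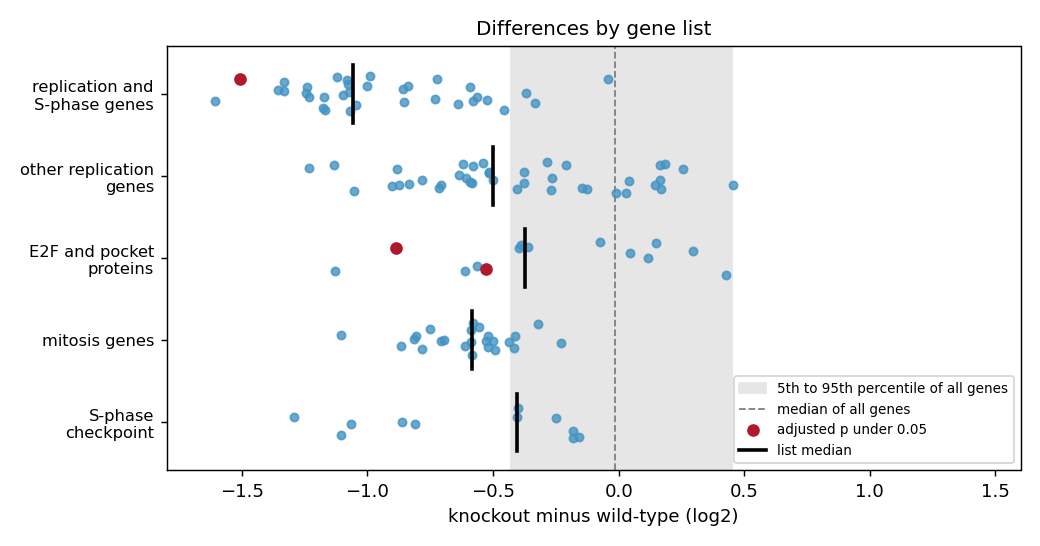
Log2 differences, knockout minus wild-type, of single genes in 5 lists; black bars are list medians, red points passed an adjusted p under 0.05, and the grey band holds the 5th to 95th percentile of all genes. The 34 replication and S-phase genes have a median of -1.06, the other replication genes -0.50 and the mitosis genes -0.58.

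Markers of some other cells that the sort could hold moved as well, and their part in these results was not tested. The summed signal of 10 erythroid markers was 10.61 to 11.73 in wild-type and 9.35 to 9.98 in knockout arrays (log2 of the sum), led by the globins Hba-a1 and Hbb-b2. Erythroid precursors are dividing cells. Of the 10 markers 6 were under 4.5 on every array, among them Alas2 (3.12 to 3.65), Klf1, Gata1 and Epor. Tfrc and Car2, which other cells also express, were brighter and differed by -0.39 and -0.24 (limma adjusted p = 0.417 and 0.367). Markers of CD8a-positive dendritic cells (7 genes) summed to 13.09 to 13.63 in wild-type and 12.54 to 12.93 in knockout arrays, although Itgae, the 1 gene of that list past the threshold, rose by 1.79 (limma adjusted p = 0.0211). Markers of CD11b-positive dendritic cells (6 genes) summed to 11.49 to 12.01 and 11.14 to 11.24, with Dtx1 lower by a log2 difference of -0.97 (limma adjusted p = 0.0306) and Itgam, which encodes CD11b, higher by 1.31 (0.0466). The T cell sum (6 genes) was 8.22 to 8.30 and 7.58 to 7.89. In that list Cd4, which some dendritic cells also express, differed by -0.97 (limma adjusted p = 0.0535). The T cell receptor complex genes Cd3e and Cd3g differed by -0.09 and -0.13. Other sums overlapped between wild-type and knockout arrays. They were 9.85 to 10.30 and 9.79 to 9.88 for haematopoietic progenitor markers (6 genes, 3 of them under 4.5 on every array). Plasmacytoid dendritic cell markers (5 genes) summed to 10.19 to 10.49 and 10.00 to 10.30, and B cell and plasma cell markers (8 genes) to 9.14 to 9.48 and 8.90 to 9.30.

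The macrophage list held the most genes past the threshold, with 3 of 12 higher in knockout cells. Its differences were positive for 9 genes and negative for 3. The negative ones were Hmox1 at -0.53, without overlap (limma adjusted p = 0.134), Adgre1 at -0.28 (0.463) and Cd68 at -0.19 (0.746), while Spic stood at 0.005 (0.995). Cd163, a scavenger receptor, rose by 1.58 (limma adjusted p = 0.00933), Mertk, which takes part in clearing dead cells, by 1.16 (0.0115) and Cd5l, secreted by tissue macrophages, by 1.51 (0.0166). The macrophage sum was 12.10 to 12.25 in wild-type arrays and 12.50, 12.46 and 11.95 on knockout replicates 1, 2 and 3. Neutrophil and granulocyte precursor markers (7 genes) summed to 7.26 to 8.11 and 8.31 to 10.47. That sum was led by S100a8, which differed by 2.28 (limma adjusted p = 0.147), and S100a9, by 1.53 (0.343). Camp and Prtn3 differed by -0.14 and -0.12, and 4 of the 7 markers were under 4.5 on every array. Among those, Elane and Mpo, made by early precursors, were at 3.51 to 3.81 and 3.42 to 3.79 over all arrays. Knockout replicates 1 and 2 read 9.98 and 9.90 in the erythroid sum, 7.88 and 7.89 in the T cell sum, 12.82 and 12.93 in the CD8a-positive sum, 11.87 and 11.57 in the monocyte sum, 6.36 and 6.71 in the NK cell sum and 9.02 and 10.47 in the neutrophil sum. The step between those replicates was thus small in some lists and large in others. The sum of 8 conventional dendritic cell markers, 15.27 to 15.39 in wild-type and 15.31 to 15.33 in knockout arrays, is set by the very bright H2-Aa, H2-Ab1 and Cd74. Within it Zbtb46, a transcription factor of these cells, differed by -0.75 (limma adjusted p = 0.0621), Flt3, their growth factor receptor, by 0.35 (0.284) and Dpp4 by 0.32 (0.367).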

How the data were processed

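Gene expression in 6 samples, 1 array each, was analysed from a deposited table of log2 values. Per the submitters' processing notes, the authors used RMA in Affymetrix Expression Console 1.1. The log2 scale was read from the values (2.58 to 13.91). RMA equalises array distributions, leaves no detection call and understates differences of dim genes. There is no depth to give; precision is limited by the number of arrays.

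Of 45141 probe sets, 104 controls were left out and 45037 tested with limma 3.58.1 in R 4.3.3 (lmFit and eBayes, no covariates). Differences are knockout minus wild-type, p-values were adjusted over all probe sets by Benjamini and Hochberg's method, and the threshold was 0.05. The platform annotation gave 28898 probe sets 1 symbol, 551 several and 15588 none, and 28689 matched the RefSeq gene table, which changed 0 symbols. The genes and lists were chosen with earlier results of these data known. Array values are given for genes past the threshold, for the 4 smallest p-values per role and the largest p in the larger roles, and of other lists for the leading 3 in part; 1 of these is not reported here. Alternatives covered filters, centring, normalization, probe set choice, variance models, weighted arrays, a replicate block, thresholds and leaving out each array. The limma step was tested on simulated data. Promoter windows came from RefSeq (GRCm38.p6), and the 1677 overlapping windows of opposite strand were all reverse complements. Plots used matplotlib 3.10.9 (Python 3.11.15).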

Additional observations from a re-analysis of the deposited data

How the results depend on the processing

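The median difference of the 34 genes kept its sign under every alternative that gave it (the smallest-p choice did not). It was -0.96 with probe sets averaged per gene and -1.09 after further quantile normalization. The medians of the other replication and mitosis genes kept their sign too. Each median also stayed within 1 SD of the arrays' spread. That spread takes in the steps between the knockout arrays. Leaving out 1 array could therefore hardly move a median beyond it, and these fits say little about stability. The median of the other replication genes, -0.50, was -0.32 without knockout replicate 3 and -0.32 with probe sets averaged. That of the mitosis genes, -0.58, was -0.37 without knockout replicate 2. Counts past the threshold moved. Among the 34 genes, 4 passed on probe sets above the median level, 6 as means of probe sets, 2 with the smallest-p probe set, 9 with a trended and robust variance, 5 with array weights, 0 at a threshold of 0.01 and 8 at 0.1, against 1 (Mcm2). With 1 array left out 0 to 25 passed. For all genes, 285 in the main analysis, the counts were 459 as means of probe sets, 69 at 0.01, 646 at 0.1 and 61 to 475 with 1 array left out (475 without knockout replicate 1, 61 without 2 and 164 without 3, 88 and 92 without wild-type replicates 1 and 2). Other replication genes passed in 1 case after quantile normalization, with the smallest-p probe set, with array weights or at 0.1, in 3 as means of probe sets (1 of them higher), and in 0 to 7 with 1 array left out. Mitosis genes passed in 2 cases as means of probe sets or at 0.1, in 1 with the smallest-p probe set or array weights, and in 0 to 5 with 1 array left out. The count without overlap, an alternative set chosen after seeing the data, ran from 22 to 33. Groups separate more easily with an array left out, and the share of all genes was not computed for these alternatives. Of 577 refits of the 34 single genes 507 kept their side of the threshold, 64 newly passed and 6, all of Mcm2, no longer did. E2f2 missed the threshold with a trended and robust variance (limma adjusted p = 0.125) and with the block (0.0511).

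With the replicate number as a block (paired fit), 542 genes, 13 of the 34, 5 other replication genes and 2 mitosis genes passed. Same-numbered arrays correlated in their deviations from the group means by 0.05, 0.13 and 0.32, the last being the highest of all pairings. Wild-type replicate 2 correlated better with knockout replicate 1 (0.22). With 3 arrays per group these correlations do not settle whether same-numbered samples form pairs. Signals near the array median, as for Orc1, limit what can be read.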

Other observations

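Genes of the S-phase checkpoint and of repair at the fork had negative differences as well. Of 14 listed 11 were measured, and 11 were negative (53.9% of all genes) with a median log2 difference of -0.40. Below the wild-type arrays without overlap lay 8 (10.6% of all genes). In limma 0 passed the adjusted threshold and 7 had an unadjusted p under 0.05 as lower (8% of all genes). Brca1, which acts in homologous recombination, read 5.95, 5.82 and 6.24 in wild-type and 5.56, 4.93 and 4.93 in knockout arrays, a difference of -0.86 (SE 0.19, limma adjusted p = 0.0916). Exo1, an exonuclease of mismatch repair, differed by -0.81 (SE 0.21, limma adjusted p = 0.147) from a dim level of 4.42 to 4.84 in wild-type arrays.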
